A study of Arabidopsis thaliana with 6 samples.

Results

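This account covers 30 Arabidopsis genes whose array signal was clearly above the middle of the scale in wild-type leaves and low in leaves of the chr11-1 chr17-1 double mutant. A gene was taken when its mean log2 level was at least 6.5 over the 3 wild-type arrays and below 5.5 over the 3 mutant arrays. Of 13355 genes with a probe set matched to a single gene, 33 met both limits, and 3 of these (AT1G31690, AT1G51090 and AT2G43590) were left out by name, which leaves the 30. By the same rule 7 named genes and all symbols starting with UGT or CYP were left out, and only those 3 met the limits. The rule used the mutant and wild-type levels themselves, so every level and difference of the 30 genes below is a description without a test. They are 0.247% of all genes and 0.952% of the 3466 genes at 6.5 or more in wild type, when the 3 left out by name are counted in, and the limits set both shares.

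Leaf RNA came from 15-day-old seedlings grown untreated at 21 °C in 16 h of light and 8 h of dark, and each of 6 single-colour Affymetrix ATH1 arrays held 1 sample. The mutant group has 3 arrays of plants carrying chr11-1 and chr17-1 together, and the other group has 3 arrays of wild-type Col-0. The double mutant is 1 allele combination without single mutants or a rescued line, and the nature of the alleles is not given in the labels. Nothing in the labels tells whether arrays of the same genotype are separate plants or cultures, and SDs and p-values then measure only how these samples differ, possibly for technical reasons.

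CHR11 and CHR17 are the Arabidopsis ISWI-type chromatin remodelling ATPases, motor proteins that slide nucleosomes along DNA and help to space them evenly over genes. ISWI remodellers act on chromatin across the genome rather than in one pathway, and plants that lack both proteins are small and flower early. The genes described here were grouped by signal and by the names left out, not by pathway. Whether they share a pathway was not tested. The comparison asks which transcripts of the leaf had a low array signal in the double mutant and a higher one in wild type.

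As a check of the tissue, both measured leaf genes of a list of 7 mesophyll markers, LHCB4.2 (a light-harvesting protein gene) and RCA (the Rubisco activase gene), were near the top of the scale, between 13.5 and 13.7 in mutant means and between 13.0 and 13.9 in wild-type means. LHCB4.2 rose (log2 difference 0.54, limma Benjamini-Hochberg adjusted p = 0.000747) and RCA had -0.23 (limma adjusted p = 0.0694). The 6 measured of 9 markers of root hairs, anthers, meristem, flowers and seeds had means of 3.65 to 4.28 in the mutant and 3.65 to 4.25 in wild type. No seed marker had a probe set matched to it alone. Throughout, a measured gene is one with such a probe set. Of 22746 probe sets, 9233 were not matched to a single gene, so a gene not measured here may still be on the array. Array medians over all probe sets were 4.73 to 4.77. In a bulk sample, fewer cells of a type and less RNA per cell cannot be told apart, and that holds for every gene below.

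The words "low signal" need a scale. The limit of 5.5 lay at the 59.7th percentile of mutant means over 22746 probe sets, and the limit of 6.5 at the 70.0th percentile of wild-type means. Mutant means of the 30 genes ran from 4.47 to 5.48 with a median of 5.06, and 21 of the 30 were above the highest array median while 9 were below the lowest. Those 9 are AT4G09760, AAH, AT3G46490, AT2G23910, AT5G44400, AT4G22830, AT3G23880, AT3G21950 and AT5G50100. The deposited values carry no detection call and no background reading, so the label's claim that these genes are lost is not shown by the data: they are genes with a low mutant reading. Probe sets differ in brightness for the same amount of RNA, so levels are set here against the same probe set in the other genotype.

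Differences between genotypes spanned a wide range among the 30. The log2 difference, mutant minus wild type, ran from -6.51 to -1.11 with a median of -2.06, which is 91.4-fold to 2.16-fold lower with a median of 4.16-fold. Over all genes the median difference was -0.0032. A log2 difference of -2 or beyond was found in 16 of the 30, and 7 had a difference smaller in size than 1.5. Of all 13355 genes, 32 had a difference of -2 or beyond, and 31 of these were at 6.5 or more in wild type. The mutant and wild-type arrays did not overlap in any of the 30, with gaps of 0.63 to 6.01 between the highest mutant and the lowest wild-type array, whereas 18.4% of all genes had their 3 mutant arrays below all 3 wild-type arrays. The rule uses this contrast, so nothing is read from that count.

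**Figure D1:**
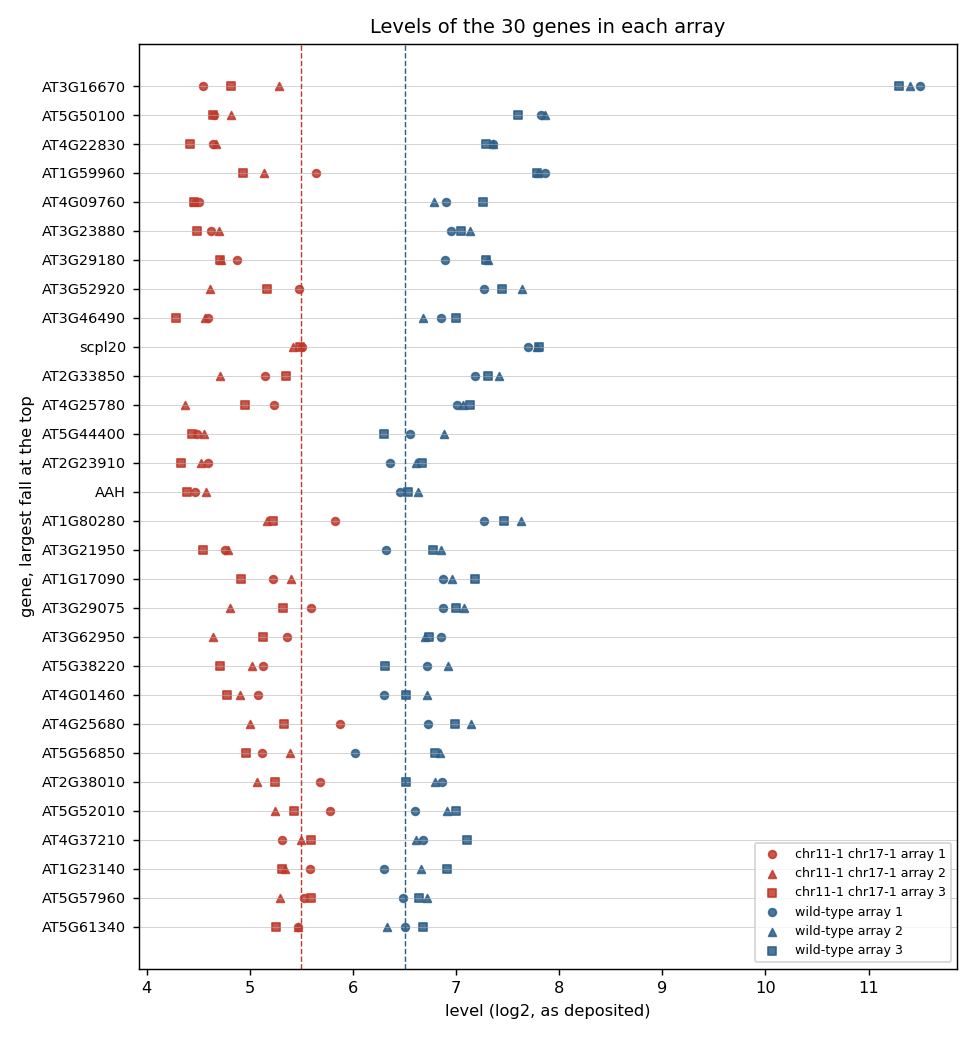
Log2 level (horizontal axis, as deposited) of each of the 30 genes (rows, largest difference at the top) in the 3 chr11-1 chr17-1 arrays (red) and the 3 wild-type arrays (blue), with dashed lines at the limits of 5.5 and 6.5. AT3G16670 stands apart with wild-type readings above 11. In some genes, not only those towards the bottom, mutant arrays lie above 5.5 or wild-type arrays below 6.5.

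Secreted proteins held the largest difference. AT3G16670 encodes a small protein of the Ole e 1 family, named after an olive pollen allergen, whose members are made for export to the cell wall space. AT3G16670 read 4.54, 5.29 and 4.82 in the mutant arrays, against 11.50, 11.40 and 11.29 in the wild-type arrays. The wild-type readings were tight, and the highest mutant reading lay 6.01 below the lowest of them on the log2 scale, with a 91.4-fold lower mean in the mutant. Its means were 4.88 ± 0.38 in the mutant and 11.40 ± 0.10 in wild type (SD, n = 3 each). On the scale of all probe sets the mutant mean stood at percentile 52.1 and the wild-type mean at percentile 98.3. AT4G25780, of the CAP family of secreted cysteine-rich proteins, read 5.24, 4.37 and 4.95 in the mutant arrays and 7.01, 7.07 and 7.14 in the wild-type arrays, so its wild-type arrays were tight and its mutant arrays spread (SD 0.44 against 0.07), with a mean 4.65-fold lower in the mutant.

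The 6 redox and oxidative enzymes were 3.29-fold to 8.33-fold lower in the mutant. AT5G50100, a thiol-disulphide oxidoreductase of the DCC type, read 4.65, 4.82 and 4.64 in the mutant arrays, against 7.82, 7.86 and 7.60 in the wild-type arrays. That is 8.33-fold lower, the second-largest difference of the 30, with little spread in either genotype. AT1G59960, an aldo-keto reductase that uses NAD(P)H, read 5.64, 5.13 and 4.93 in the mutant arrays and 7.87, 7.79 and 7.79 in the wild-type arrays. Mutant array 1 of AT1G59960 was above 5.5 although the mean was not, and the difference was -2.58. AT3G46490, an iron- and oxoglutarate-dependent oxygenase, read 4.60, 4.57 and 4.28 in the mutant arrays, against 6.86, 6.68 and 6.998 in the wild-type arrays, a difference of -2.36. AT5G44400 belongs to the berberine bridge enzyme family of flavin oxidases and had means of 4.49 ± 0.06 in the mutant and 6.58 ± 0.29 in wild type (SD, n = 3 each). AT2G23910, of the reductase family that includes cinnamoyl-CoA reductase, had 4.48 ± 0.14 in the mutant and 6.55 ± 0.17 in wild type. In both, the spread was larger in wild type. AT3G62950, a plant-specific CC-type glutaredoxin, had 5.04 ± 0.36 in the mutant and 6.76 ± 0.08 in wild type, with the larger spread in the mutant.

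Among the hydrolases, 6 genes were 2.63-fold to 4.89-fold lower. The serine carboxypeptidase-like gene scpl20 encodes a member of a family of vacuolar or secreted peptidases and acyltransferases. It read 5.51, 5.42 and 5.48 in the mutant arrays, against 7.70, 7.78 and 7.80 in the wild-type arrays. These are among the tightest readings of the set (SD 0.05 in each genotype), and the mean was 4.89-fold lower in the mutant while lying just inside the mutant limit. AAH encodes allantoate amidohydrolase, which releases ammonia from allantoate when purine rings are broken down for their nitrogen. AAH read 4.47, 4.58 and 4.39 in the mutant arrays, against 6.45, 6.63 and 6.53 in the wild-type arrays, 4.17-fold lower and just inside the wild-type limit. AT1G80280 and AT5G38220 both encode alpha/beta-fold hydrolases. AT1G80280 had 5.41 ± 0.37 in the mutant and 7.46 ± 0.18 in wild type, and AT5G38220 had 4.95 ± 0.22 in the mutant and 6.65 ± 0.31 in wild type (SD, n = 3 each). AT2G38010, a neutral ceramidase that splits the sphingolipid ceramide, had 5.33 ± 0.32 in the mutant and 6.72 ± 0.19 in wild type. AT4G25680, a thiol peptidase of the PPPDE type, had 5.40 ± 0.44 in the mutant, the largest mutant spread of the 30, and 6.95 ± 0.21 in wild type.

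A kinase and a methyltransferase were both below the array median in the mutant. AT4G09760 encodes a choline/ethanolamine kinase, which starts the route from choline to phosphatidylcholine. AT4G09760 read 4.50, 4.46 and 4.46 in the mutant arrays, against 6.90, 6.78 and 7.26 in the wild-type arrays. The mutant SD of 0.03 was the smallest of the 30, and the mean was 5.69-fold lower. AT3G21950, a SABATH-type methyltransferase, from a family that methylates small acids such as salicylate and jasmonate, had 4.70 ± 0.14 in the mutant and 6.65 ± 0.28 in wild type (SD, n = 3 each), 3.87-fold lower.

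Genes for regulators and binding proteins included 5 members, 2.21-fold to 5.44-fold lower. AT3G23880, an F-box protein gene, read 4.62, 4.70 and 4.49 in the mutant arrays, against 6.95, 7.14 and 7.05 in the wild-type arrays, a difference of -2.44. F-box proteins choose the targets of a ubiquitin ligase. AT4G01460, a basic helix-loop-helix transcription factor gene, read 5.08, 4.90 and 4.78 in the mutant arrays and 6.30, 6.72 and 6.52 in the wild-type arrays, and its lowest wild-type array was below the wild-type limit. AT5G57960, a gene for a GTPase of the HflX type, known in bacteria as a ribosome-binding protein, read 5.53, 5.29 and 5.59 in the mutant arrays, against 6.49, 6.72 and 6.64 in the wild-type arrays. Its mean was 2.21-fold lower, and its mutant readings lay on both sides of 5.5. AT4G37210, which encodes a histone H3 chaperone with tetratricopeptide repeats, had 5.47 ± 0.14 in the mutant and 6.80 ± 0.27 in wild type (SD, n = 3 each), 2.51-fold lower. AT1G23140, a small C2-domain lipid-binding protein gene, had 5.41 ± 0.15 in the mutant and 6.62 ± 0.30 in wild type.

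No role is given here for 9 members. AT4G22830 read 4.64, 4.67 and 4.42 in the mutant arrays, against 7.36, 7.36 and 7.29 in the wild-type arrays, 6.77-fold lower. Its wild-type SD of 0.04 was the smallest of the 30. AT3G29180 read 4.88, 4.72 and 4.71 in the mutant arrays and 6.89, 7.31 and 7.29 in the wild-type arrays, 5.252-fold lower. AT3G52920 read 5.47, 4.62 and 5.17 in the mutant arrays and 7.27, 7.64 and 7.44 in the wild-type arrays, 5.15-fold lower with a wide mutant spread. AT2G33850 read 5.15, 4.71 and 5.35 in the mutant arrays and 7.19, 7.42 and 7.31 in the wild-type arrays, 4.71-fold lower. In these last 2 genes mutant array 2 was the lowest. AT1G17090 and AT3G29075 were 3.54-fold and 3.35-fold lower in the mutant, and AT5G56850 2.64-fold lower with the largest wild-type SD of the 30 (0.46). AT5G52010 read 5.78, 5.248 and 5.43 in the mutant arrays and 6.61, 6.91 and 6.998 in the wild-type arrays. AT5G61340 had the smallest difference, with 5.47, 5.47 and 5.2501 in the mutant arrays, against 6.51, 6.33 and 6.68 in the wild-type arrays.

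At the limits the choice is a matter of small amounts. Just inside the wild-type limit were AT5G61340 (6.51), AT4G01460 (6.51) and AAH (6.54), and just outside it, among genes more than 2-fold lower, were SNZ (5.2502 ± 0.22 in the mutant and 6.49 ± 0.17 in wild type), AT4G33490 (5.36 and 6.48) and AT4G18740 (5.19 and 6.46). SNZ is a floral repressor of the AP2 family. Just inside the mutant limit were AT5G52010 (5.48), AT5G57960 (5.47) and scpl20 (5.47), and just outside it AT2G42080 (5.51 in the mutant and 6.77 in wild type), AT1G10650 (5.52 and 7.23) and AT1G70200 (5.53 and 7.42). AT1G10650 and AT1G70200 had differences of -1.71 and -1.89, larger in size than those of 10 and 13 of the 30 genes. In all 6 arrays 12 of the 30 genes were on the right side of both limits. All 3 mutant arrays were below 5.5 in 20 genes, and all 3 wild-type arrays were at 6.5 or more in 20.

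**Figure D2:**
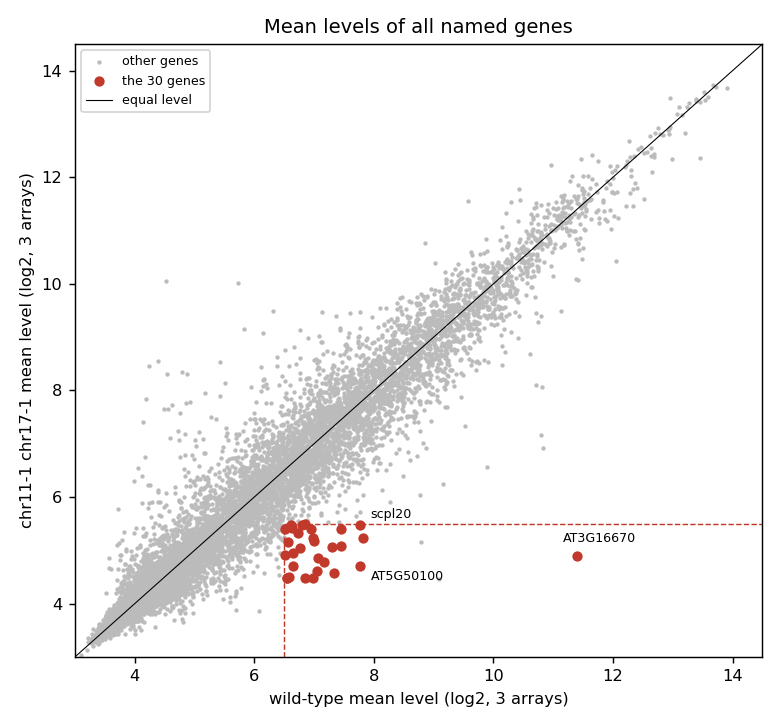
Mean log2 level in chr11-1 chr17-1 (vertical axis) against wild type (horizontal axis), 3 arrays each, for all 13355 genes (grey) and the 30 genes (red), with the limits dashed and the line of equal level in black. Most of the 30 lie between 6.5 and 8 in wild type, and AT3G16670 lies alone at 11.40. The grey points inside the limits are the 3 genes left out by name.

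The 3 mutant arrays were not equally high in the 30 genes. Mutant array 1 was the highest of the 3 mutant arrays in 17 of the 30 genes (56.7%), and mutant array 3 in 3 genes. Among 1855 other genes with mutant means in the same range, array 1 was the highest in 46.1% and array 3 in 29.9%. A range of over 0.5 between the mutant arrays was found in 11 of the 30 genes (36.7%) and in 15.8% of the 1855. In 9 of these 11 genes array 1 was the highest, as in 61.9% of the other genes with such a range, and in 9 of them array 2 was the lowest, as in 31.6% of those. These differences in share were not tested. On mutant array 1 the 25S ribosomal RNA control read 8.90, against 10.85 and 10.85 on the other mutant arrays and 10.49, 10.32 and 10.33 on the wild-type arrays, so that array stands apart in this control too, and the part of that in the result was not tested. In wild type, array 1 was the lowest in 18 of the 30 genes, and in 44.5% of other genes with wild-type means in the members' range.

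Choosing again without an array and reading that array gave values that the choice had not used. Without mutant array 1 the limits took 35 genes, and array 1 read below 5.5 in 20 of them and at 5.5 or more in 15, with a median of 5.36 and a highest reading of 6.23. Mutant array 2 read below 5.5 in 26 of the 27 genes chosen without it (median 4.80), and mutant array 3 in 27 of 31 (median 4.95). Left-out wild-type array 1 was at 6.5 or more in 23 of 37 genes (median 6.72), array 2 in 25 of 28 (median 6.94) and array 3 in 24 of 27 (median 7.05). The highest left-out mutant reading (6.23) was above the lowest left-out wild-type reading (5.79), and AT3G16670 was read above 11 in each left-out wild-type array. Most of the chosen genes thus read below 5.5 in each left-out mutant array, least often in mutant array 1. A reading below 5.5 was common, since 8576 of all 13355 genes had a mutant mean below it. At 6.5 or more in wild-type mean were 3466 genes. Nothing is read from the mutant counts by themselves. Between 26 and 30 of the 30 genes were chosen again in each of the 6 cases. Each repeated choice used 5 of the same 6 arrays, so nothing is read from that overlap.

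**Figure D3:**
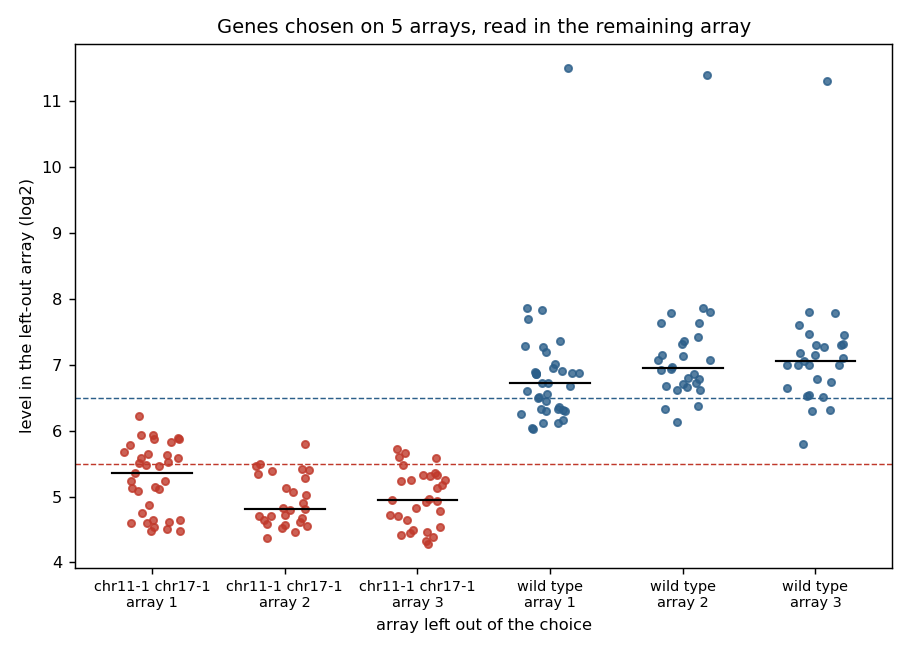
Log2 level (vertical axis) in each left-out array (horizontal axis) of the genes chosen on the other 5 arrays, chr11-1 chr17-1 arrays in red and wild-type arrays in blue, with black bars at the medians and dashed lines at 5.5 and 6.5. Medians were 5.36, 4.80 and 4.95 in the mutant arrays and 6.72, 6.94 and 7.05 in the wild-type arrays.

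Another 24 probe sets that met both limits were not matched to a single gene, 2 of them listed with several genes. Their differences ran from -3.96 to -1.19 with a median of -2.12, and they are not named here. The opposite pattern, 6.5 or more in the mutant and below 5.5 in wild type, was met by 42 genes, against 33 for the pattern described here before names were left out. Each of the 30 genes is measured by 1 probe set, and 0 of these carry a suffix for possible cross-hybridisation.

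Positions in the genome were spread over all 5 nuclear chromosomes. Chromosome 1 held 4 of the 30 genes (0.117% of its measured genes), chromosome 2 held 3 (0.138%), chromosome 3 held 8 (0.293%), chromosome 4 held 8 (0.413%) and chromosome 5 held 7 (0.234%). Among the 30 genes, none lay within 10 genes of another, and the closest pair, AT4G25680 and AT4G25780, stood 12 genes apart. The 24 other probe sets that met both limits and the 3 genes left out by name were not included. Clusters that hold any of those were therefore not looked for.

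Measured genes nearest to the 30 on the chromosome were not used by the rule and could be tested. They were not always adjacent: 56 of the 60 stood within 10 genes of the member, and the farthest was 22 genes away. The nearest measured gene on each side gave 60 neighbours, of which 16 fell and 8 rose at a limma adjusted p below 0.05, and 36 did not pass. As shares, 26.7% of neighbours fell, against 13.1% of all genes, and 13.3% rose, against 12.5% of all genes. Their median difference was -0.04. The test calls brighter genes more often. Of the 28 neighbours with a mean above the highest array median, 13 fell (46.4%) and 7 rose, whereas 24.1% of all such genes fell and 23.9% rose. Of the 29 neighbours that were the very next gene in the gene table, 6 fell (20.7%) and 5 rose (17.2%). The difference between the neighbours' shares and those of all genes was not tested.

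Of the 60 neighbours, 1 had a difference of -1 or beyond and 1 a difference of 1 or more, against 2.05% and 2.32% of all genes, shares from which nothing particular to the neighbours is read. The next gene to AT5G50100, AT5G50110, fell (4.58 in the mutant and 6.17 in wild type, difference -1.59, SE 0.16, limma adjusted p = 4.79e-05). On either side of AT4G22830, both adjacent genes rose, AT4G22840 by 1.02 (limma adjusted p = 3.78e-05) and AT4G22820 by 0.50 (limma adjusted p = 0.00597), so a gene 6.77-fold lower stood between neighbours that moved the other way. AT3G29180 had a neighbour that rose, AT3G29170 (difference 0.90, limma adjusted p = 4.17e-05), and one that fell, AT3G29185 (-0.59, limma adjusted p = 0.00113). Of the nearest measured genes around AT3G16670, AT3G16660, 3 genes away, fell (-0.75, limma adjusted p = 0.00197), and AT3G16680, the next gene, had -0.06 (limma adjusted p = 0.796).

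The share of relatives and pathway partners of the 30 genes that passed the test was near that of all genes. Over 11 lists, which hold the families or pathways of 11 members and leave the members themselves out, 118 genes were measured. Of these, 13 fell (11.0%) and 13 rose (11.0%) at a limma adjusted p below 0.05, and 92 did not pass (78.0%). Over all genes 13.1% fell, 12.5% rose and 74.4% did not pass. Of the 41 list genes with a mean above the highest array median, 11 fell (26.8%) and 10 rose (24.4%), against 24.1% and 23.9% of all such genes. The median difference of the 118 list genes was -0.0088. The differences between these shares were not tested. Of the list genes that passed, 5 had means below every array median in both genotypes: AT1G30700, BSMT1, AT5G11930, PR-1-LIKE and AT5G01670.

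**Figure D4:**
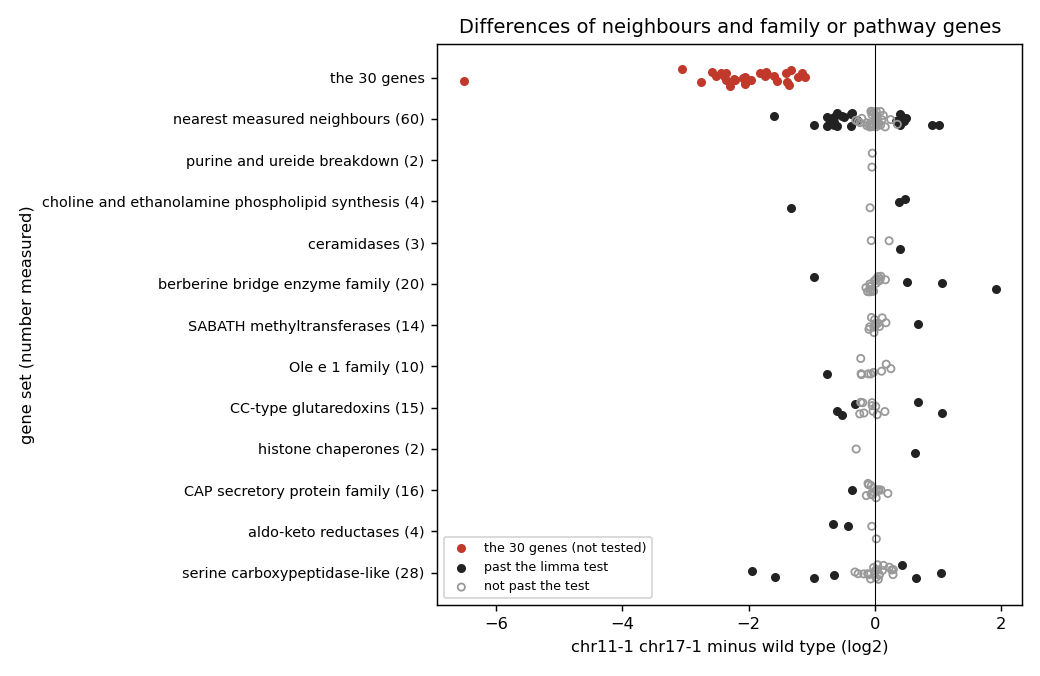
Log2 difference, chr11-1 chr17-1 minus wild type (horizontal axis), of the 30 genes (red), their nearest measured neighbours and the genes of 11 family or pathway lists (rows, number measured in brackets), with filled points past the limma test at adjusted p 0.05 and open points not past it. Most open points lie close to 0, and the filled points lie on both sides of it.

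Of the 10 other Ole e 1 family genes measured, 1 fell, AT3G16660, and 9 did not pass. AT3G16660 is listed close to AT3G16670 in the gene table and read 6.13, 6.18 and 6.52 in the mutant arrays, against 7.25, 7.02 and 6.81 in the wild-type arrays. Its difference of -0.75 is far smaller than the -6.51 of AT3G16670, so the pair differed in size but not in sign. The list median was -0.08. In the CAP family 1 of 16 measured genes fell, PR-1-LIKE (-0.35, limma adjusted p = 0.0292), and 0 rose. PR-1-LIKE did not pass without mutant replicate 1 (-0.27), mutant replicate 3 (-0.36), wild-type replicate 2 (-0.36) or wild-type replicate 3 (-0.31), and its limma adjusted p lay between 0.0204 and 0.112 over the alternatives.

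In the berberine bridge enzyme family of AT5G44400, 1 of 20 measured genes fell and 3 rose. AT5G44410, the next gene to AT5G44400, read 4.53, 4.52 and 4.52 in the mutant arrays, against 5.40, 5.51 and 5.56 in the wild-type arrays (difference -0.97, SE 0.09, limma adjusted p = 1.98e-05). These 2 adjacent relatives were both lower, while elsewhere in the family AT2G34810 rose. AT2G34810 read 8.15, 8.16 and 7.91 in the mutant arrays, against 6.09, 6.20 and 6.16 in the wild-type arrays (difference 1.92, limma adjusted p = 3.77e-07). The other rises were AT4G20830 (1.07, limma adjusted p = 0.0027) and AT1G30700 (0.51, limma adjusted p = 0.00314).

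Around the choline kinase gene AT4G09760, 4 of 8 listed genes of phospholipid synthesis were measured. CCT2, for an enzyme that turns the phosphocholine made by choline kinases into CDP-choline, read 4.56, 4.49 and 4.48 in the mutant arrays, against 5.65, 5.98 and 5.86 in the wild-type arrays. CCT2 fell (difference -1.32, SE 0.10, limma adjusted p = 7.29e-06), and CCT1, its paralogue, had -0.07 (limma adjusted p = 0.703). AT1G74320, another choline kinase gene, rose (0.48, limma adjusted p = 0.009), as did AAPT2, for the aminoalcoholphosphotransferase of the last step (0.38, limma adjusted p = 0.0245). AAPT2 lost its call when mutant replicate 2 (0.36) or wild-type replicate 1 (0.27) was left out, and across all settings tried its limma adjusted p was 0.0203 to 0.0816.

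The serine carboxypeptidase-like family gave 28 measured relatives of scpl20, of which 4 fell, 3 rose and 21 did not pass. The largest fall was that of scpl29, with 6.95, 6.90 and 6.90 in the mutant arrays, against 8.93, 8.96 and 8.72 in the wild-type arrays (difference -1.95, SE 0.10, limma adjusted p = 2.8e-07). It was close in size to that of scpl20 (-2.29), from a higher wild-type reading. The other falls were scpl35 (-1.58), scpl50 (-0.95) and SCPL49 (-0.65), and the rises were SCPL34 (1.05), scpl48 (0.66) and scpl26 (0.44), with limma adjusted p-values of 2.8e-07 to 0.00297 over the 7 genes.

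Glutaredoxins of the CC type gave 15 measured relatives of AT3G62950, of which 3 fell, 2 rose and 10 did not pass. As shares, 20% fell and 13.3% rose, against 13.1% and 12.5% of all genes. Nothing particular to the family is read from these shares. The falls were AT4G15660 (-0.59), AT3G62930 (-0.52) and AT2G30540 (-0.31), and the rises were GRX480 (1.06) and AT5G11930 (0.68). GRX480 encodes a salicylate-inducible glutaredoxin and read 5.92, 6.14 and 6.17 in the mutant arrays, against 4.99, 5.05 and 4.9995 in the wild-type arrays. The limma adjusted p-values of these 5 genes were 1.98e-05 to 0.0237. AT3G62930 did not pass without mutant replicate 1 (-0.42), wild-type replicate 1 (-0.42) or wild-type replicate 2 (-0.47), and AT2G30540 did not pass without mutant replicate 2 (-0.29), mutant replicate 3 (-0.28), wild-type replicate 2 (-0.30) or wild-type replicate 3 (-0.27). Of 14 measured SABATH methyltransferases 1 rose, BSMT1, whose enzyme makes methyl salicylate and methyl benzoate (0.68, limma adjusted p = 0.000209), and 0 fell. BSMT1 read 4.17, 4.25 and 4.18 in the mutant arrays, against 3.44, 3.51 and 3.60 in the wild-type arrays, all below every array median, and without the lowest 30% of probe sets it was not tested and 0 genes of the family rose.

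Among aldo-keto reductases, AT1G59950, the next gene to AT1G59960, read between 3.51 and 3.69 in all 6 arrays and had a difference of 0.03 (limma adjusted p = 0.891), so the adjacent relative was dim in both genotypes. AT2G27680 fell (-0.66, limma adjusted p = 0.000396), as did AT5G01670 (-0.42, limma adjusted p = 0.00657). AT5G62420 had -0.04 (limma adjusted p = 0.81). In this family 4 of 10 listed genes were measured, of which 2 fell, 0 rose and 2 did not pass. Of 3 other ceramidase genes measured, AT1G07380 rose (0.40, limma adjusted p = 0.0272), opposite to the lower level of AT2G38010. It did not pass without mutant replicate 1 (0.37), mutant replicate 3 (0.34), wild-type replicate 1 (0.38) or wild-type replicate 3 (0.34), and its limma adjusted p lay between 0.0127 and 0.107 over the alternatives. Of 7 listed genes of purine and ureide breakdown 2 were measured beside AAH: ALN, whose enzyme makes the allantoate that AAH uses, had -0.04 (limma adjusted p = 0.898), and UGLYAH, for a later step, had -0.04 (limma adjusted p = 0.848). Of 14 listed histone chaperone genes 2 were measured beside AT4G37210, and both encode ASF1-type H3-H4 chaperones. SGA2 rose (0.63, limma adjusted p = 0.00192), and ASF1B had -0.29 (limma adjusted p = 0.0743), and leaving out wild-type replicate 2 brought it past the threshold (-0.37, with limma adjusted p-values of 0.0478 to 0.275 across the settings tried).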

How the data were processed

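RNA of leaves was measured on 6 ATH1 arrays, 3 of each genotype. The deposited values are on a log2 scale, 1 per probe set and array, made by the authors. RMA and Partek are named in the submitters' processing notes, without versions or settings, and values were used as deposited. Probe sets were named through GEO's platform table and a RefSeq gene table (TAIR10.1), the second used for names and gene order only, in which all 30 genes were found. It gives 28 of the 30 by a locus code alone. Protein families and roles are background from general knowledge of Arabidopsis, and no value rests on them. The highest-mean probe set stood for a gene.

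Neighbours and list genes were tested in a fit by limma 3.58.1 (R 4.3.3, lmFit then eBayes, two-sided) over all 22746 probe sets that are not Affymetrix controls, taking mutant over wild type. P-values were adjusted over all of them by Benjamini-Hochberg, and 0.05 was the threshold. It called 14.7% of probe sets lower and 14% higher, and was tested on simulated data. Tables and figures used Python 3.11.15, pandas 2.3.3 and matplotlib 3.10.9. Members and lists were chosen with earlier results of these data known, and the lists and the neighbours were added after the members' values were seen. Genes named with values in every array are the 12 with the largest difference and those nearest the limits. List genes and neighbours were named after their values were seen. Planned counts of relatives by protein sequence, promoter motifs and protein features were not run, since no promoter or protein sequences were available. Planned classes by description were not run either. Arrays with the same replicate number did not deviate together (r of -0.30, -0.17 and -0.17), and the main fit did not pair them. Whether the numbers mark a shared batch was not tested. The number of arrays limits the precision.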

Additional observations from a re-analysis of the deposited data

How the results depend on the processing

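The set of 30 genes was the same 30 after quantile normalization, median centring, removal of probe sets with a cross-hybridisation suffix and averaging of probe sets. Neither suffix removal nor averaging could take a gene out of the 30, since each is measured by 1 probe set without such a suffix. Array medians already lay between 4.73 and 4.77, so median centring could move levels only slightly. The set became 14 genes, all among the 30, with the limits moved apart by 0.25, and 102 genes, with all 30 among them, with the limits moved together by 0.25. Without single arrays it had 27 to 37 genes. All 360 values of the 30 genes' differences under the alternatives kept their sign and moved by less than 1 SD. The rule chose the genes on these levels, so nothing is read from the kept signs. Suffix removal, averaging and a replicate term in the fit (the replicate block) could not change these differences. Neighbours that fell were 10 at an adjusted p below 0.01, and 12 to 15 without single arrays; in the other settings the count was within 1.5 times the 16 reported, and so were neighbours that rose (6 to 9), list genes that fell (10 to 14) and rose (11 to 14), and probe sets that were lower (2276 to 3651) and higher (2196 to 3292). With the replicate block 2914 probe sets were lower, and AT1G07380 (adjusted p = 0.0697) and AT2G30540 (adjusted p = 0.0744) no longer passed limma. Of 543 values of other named genes, 512 kept direction and side of the threshold, 20 no longer passed, 4 newly passed and 7 changed sign. The changes of sign were in differences near 0: without single arrays AT3G16680 ran from -0.123 to 0.0470, AT1G59950 from -0.0171 to 0.0811, UGLYAH from -0.0720 to 0.0260 and ALN from -0.15 to 0.116, and ALN had 0.0214 with array weights. The genes that lost their call without at least 1 array were AAPT2, AT1G07380, AT3G62930, AT2G30540 and PR-1-LIKE. RCA passed after quantile normalization, with array weights and with a trended prior, and ASF1B when wild-type replicate 2 was left out. The cause was not tested. Comparisons with relatives by protein sequence and their alternatives were not run.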
